A study of Homo sapiens with 12 samples.

Results

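The genes that set the passage from G1 to S phase were followed in HK-2 cells given a compound that the labels call Aa. They were the D-type cyclins CCND1 and CCND3, the E-type cyclins CCNE1 and CCNE2, the transcription factors E2F1, E2F2, E2F3, E2F7 and E2F8, and the pocket protein RB1. These 10 genes were chosen by name out of 19775 genes on the array. Each was read from the probe set, annotated to that gene alone, with the highest mean over all arrays. All 10 passed the filter on low values that left 11184 genes for testing, and their other probe sets served as a check.

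HK-2 cells are proximal tubule cells of the human kidney that were immortalised for culture. Plated a day earlier and near confluence, they received a high dose of Aa, or its vehicle as the control, and RNA was taken after 24 h or 48 h. With 3 samples called biological replicates in each of 4 groups, 12 Affymetrix arrays were read. The sources used here do not give the identity of Aa, its dose or the vehicle. The line was made with the E6 and E7 genes of a human papillomavirus, and the E7 protein binds the RB protein, so all groups share a background in which this brake is weakened.

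Cells commit to DNA replication when D-type cyclins with CDK4 or CDK6, and then E-type cyclins with CDK2, phosphorylate the RB protein. RB then releases the activator factors E2F1, E2F2 and E2F3, which switch on genes of DNA replication, the E-type cyclins and further E2F genes. E2F7 and E2F8 are themselves E2F targets and repress the same genes, which closes the loop. In the kidney, tubule cells rest outside the cycle and re-enter it after injury, whereas HK-2 cells divide in culture.

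Aa raised most of these transcripts at both times. At 24 h, 7 of the 10 genes were higher in Aa than in control, 0 were lower and 3 did not pass (limma, Benjamini-Hochberg adjusted p under 0.05 over all 11184 genes). No gene was lower at an unadjusted p under 0.05 either (count 0). At 48 h, 8 were higher, 1 was lower and 1 did not pass. Many other genes moved as well: 26.3% of all genes tested were higher and 22.8% lower at 24 h, and 30.6% and 33.9% at 48 h. The median log2 change of the 10 genes was 0.81 at 24 h and 1.32 at 48 h, beside medians of 0.02 and -0.03 over all genes tested. Every Aa array lay above every control array for 7 of the 10 genes at 24 h and 8 at 48 h, against 30.8% and 33.0% of all genes. In bulk RNA, fewer cells of one kind and less RNA per cell cannot be told apart.

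**Figure D1:**
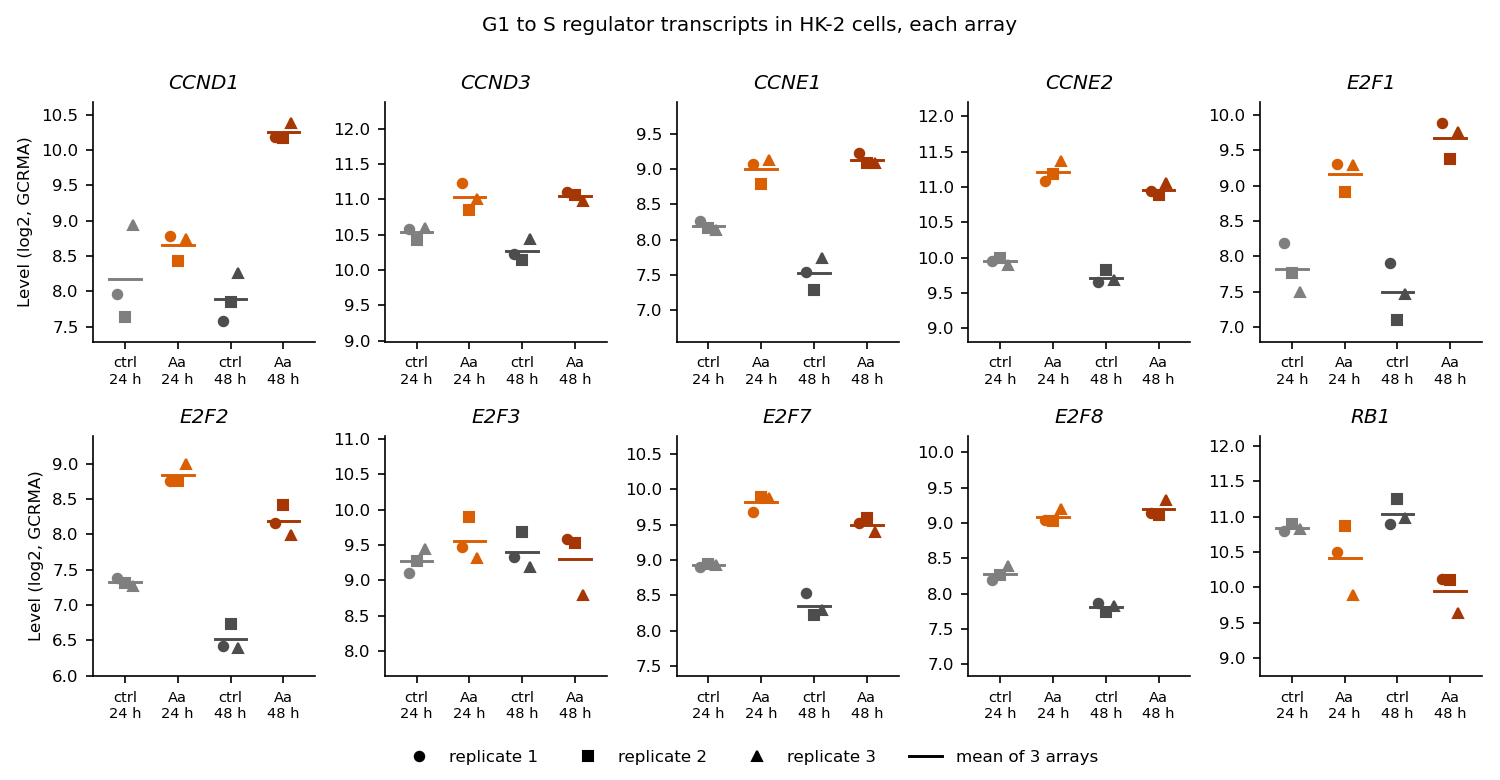
Log2 GCRMA level (y axis, each panel spanning the same range) of the 10 genes on each array, by group on the x axis, with marker shape for the replicate number and a bar for the mean of 3 arrays. Aa arrays sit above control arrays at both times for CCND3, CCNE1, CCNE2, E2F1, E2F2, E2F7 and E2F8, CCND1 does so at 48 h alone, the E2F3 groups overlap, and RB1 is lower in Aa at 48 h.

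Array quality and scale moved with the groups. The log2 excess of 3′ over 5′ control probe sets, which grows as RNA degrades, averaged 0.394 in Aa and 0.306 in control at 24 h, and 0.542 and 0.319 at 48 h. The spiked hybridisation controls read 10.93 in Aa and 10.65 in control at 24 h, and 11.40 and 10.96 at 48 h. Scaling each array to them shifted the median change of all genes by -0.29 at 24 h and -0.44 at 48 h, and lowered the changes of the 10 genes by 0.28 and 0.44. Then 6 of the 10 genes were higher and 1 lower at 24 h, beside 14.7% and 34.6% of all genes. At 48 h 8 were higher and 2 lower, beside 16.0% and 53.0% of all genes. ACTB, a cytoskeletal reference, differed by -0.09 at 24 h and -0.29 at 48 h, and the glycolytic enzyme GAPDH by 0.03 and -0.08, none past the test (adjusted p 0.586, 0.0634, 0.782 and 0.423). Of 12 proximal tubule markers on the array only SLC3A1 and SLC4A4 were over the filter, while LRP2, CUBN and AQP1 were at background. Levels of each marker list were summed on the linear scale and given as log2, so SLC4A4, the highest of these markers, weighs most. For that list the sum ran from 9.99 to 11.2 in Aa and 11.2 to 12.1 in control at 24 h. At 48 h it ran from 8.95 to 9.97 in Aa and 11.9 to 13.0 in control. Of 5 fibroblast markers, COL1A1, DCN and LUM were over the filter and COL3A1 and PDGFRB at background, and 0 of 5 leukocyte markers were over it. The summed fibroblast level ran from 11.85 to 12.35 in Aa and 12.26 to 12.76 in control at 24 h, and from 12.02 to 12.24 and 12.18 to 12.44 at 48 h. Of 8 renal epithelium markers 7 were over the filter, and their summed level was lower in Aa at 24 h without overlap (14.48 to 14.70 against 14.96 to 15.14), and ran from 14.43 to 14.79 in Aa and 14.76 to 15.03 in control at 48 h. The part of RNA quality, array scale and marker levels in the changes below was not tested beyond the values given.

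The D-type cyclins start the sequence and respond to growth signals. CCND1 (probe set 208712_at) read 7.96, 7.64 and 8.95 on the control arrays at 24 h (log2 level, replicates 1 to 3) and 8.78, 8.42 and 8.75 on the Aa arrays. Control replicate 3 was higher than every Aa array, so the groups overlapped, and the log2 change of 0.47 (SE 0.29) did not pass (adjusted p 0.203). Without that array the change was 0.85 and passed (adjusted p 0.00662), the 1 alternative of 24 under which it did. Without control replicate 2 it was 0.20 (adjusted p 0.601), and with scaling to the hybridisation controls 0.19 (adjusted p 0.568). At 48 h the control arrays read 7.58, 7.85 and 8.25 and the Aa arrays 10.19, 10.18 and 10.39. The groups lay far apart, and CCND1 was 5.12-fold higher in Aa (log2 2.36, SE 0.29, adjusted p 3.44e-05), the largest change among the 10 genes at that time. Its second probe set gave log2 changes of 0.21 (adjusted p 0.721 over all probe sets tested) and 2.13 (0.00161).

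CCND3 (201700_at), the other D-type cyclin of the set, read 10.59, 10.43 and 10.60 in control and 11.23, 10.85 and 11.01 in Aa at 24 h. At 48 h the control arrays read 10.23, 10.14 and 10.43 and the Aa arrays 11.11, 11.07 and 10.98. No control array reached an Aa array at either time. The rise was 1.41-fold at 24 h (log2 0.49, SE 0.12, adjusted p 0.00550) and 1.72-fold at 48 h (0.79, SE 0.12, adjusted p 0.000162), the smallest among the genes that rose. With scaling to the hybridisation controls its 24 h change was 0.21 and did not pass (adjusted p 0.242), and its 48 h change was 0.35, just past the threshold (adjusted p 0.0479). Its second probe set was at background on all arrays.

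The E-type cyclins drive CDK2 at the start of S phase, and both rose at both times. CCNE1 (213523_at) read 8.26, 8.16 and 8.14 in control and 9.07, 8.78 and 9.13 in Aa at 24 h. At 48 h it read 7.54, 7.28 and 7.74 in control and 9.22, 9.08 and 9.08 in Aa. The Aa arrays stood at a similar level at both times while the control arrays stood lower at 48 h, and the groups did not overlap at either. The rise was 1.75-fold at 24 h (log2 0.81, SE 0.13, adjusted p 0.000486) and 3.05-fold at 48 h (1.61, SE 0.13, adjusted p 1.99e-06). CCNE2 (205034_at) read 9.95, 9.99 and 9.89 in control and 11.08, 11.18 and 11.36 in Aa at 24 h. At 48 h it read 9.65, 9.82 and 9.68 in control and 10.94, 10.89 and 11.05 in Aa. Its rise was alike at both times, 2.40-fold (log2 1.26, SE 0.10, adjusted p 2.84e-06) and 2.37-fold (1.24, SE 0.10, adjusted p 1.66e-06). The difference of these changes was -0.02 on the log2 scale, with a 95% confidence interval from -0.33 to 0.29. A second CCNE2 probe set rose by 0.83 and 1.26, and the second one of CCNE1 was at background.

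Among the activator E2Fs, E2F1 and E2F2 rose and E2F3 did not pass. E2F1 (204947_at) read 8.18, 7.77 and 7.50 in control and 9.30, 8.90 and 9.28 in Aa at 24 h, then 7.91, 7.09 and 7.47 in control and 9.88, 9.38 and 9.76 in Aa at 48 h. Replicate 2 was the lowest Aa array at both times, and still stood above every control array. The rise was 2.54-fold at 24 h (log2 1.35, SE 0.24, adjusted p 0.000722) and 4.54-fold at 48 h (2.18, SE 0.24, adjusted p 1.34e-05). A second E2F1 probe set rose by 1.59 and 2.85.

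E2F2 (228361_at) read 7.38, 7.31 and 7.27 in control and 8.75, 8.76 and 8.99 in Aa at 24 h, then 6.42, 6.73 and 6.40 in control and 8.16, 8.41 and 7.99 in Aa at 48 h. Levels were lower at 48 h than at 24 h in control and in Aa alike, and the rise with Aa was 2.86-fold (log2 1.51, SE 0.13, adjusted p 6.24e-06) and 3.19-fold (1.67, SE 0.13, adjusted p 1.58e-06). E2F3 (203693_s_at) read 9.10, 9.27 and 9.45 in control and 9.47, 9.90 and 9.31 in Aa at 24 h. At 48 h it read 9.33, 9.68 and 9.18 in control and 9.58, 9.53 and 8.79 in Aa. These groups overlapped at both times, and the log2 change was 0.29 at 24 h (95% interval from -0.22 to 0.80, adjusted p 0.325) and -0.10 at 48 h (from -0.61 to 0.41, adjusted p 0.728). The E2F3 probe sets disagreed at 48 h: the second was higher in Aa by 0.54 (adjusted p 0.00790), whereas it differed by 0.21 at 24 h (adjusted p 0.280). The sign of the 48 h value of the probe set used turned without Aa 48 h replicate 3 (0.16, adjusted p 0.517) or without control 48 h replicate 2 (0.04, adjusted p 0.896). With scaling to the hybridisation controls it was -0.54 and passed (adjusted p 0.0458), so no direction is given for E2F3 at 48 h.

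Promoters of the activator E2Fs carry the factors' own consensus sequence, which is why these stretches are shown beside their transcripts. RefSeq promoter windows (assembly GRCh38.p14, 250 bases before to 50 after a gene's start) were searched on both strands for TTTCCCGC, TTTCGCGC, TTTGCCGC and TTTGGCGC. The 100 bases before the start are printed 5′ to 3′ on the gene's strand, with each match in capitals, at chr20:33686386-33686485 (minus strand) for E2F1, chr1:23531234-23531333 (minus strand) for E2F2 and chr6:20401779-20401878 (plus strand) for E2F3.
E2F1: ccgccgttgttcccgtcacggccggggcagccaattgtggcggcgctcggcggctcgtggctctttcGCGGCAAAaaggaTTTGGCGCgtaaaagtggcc
E2F2: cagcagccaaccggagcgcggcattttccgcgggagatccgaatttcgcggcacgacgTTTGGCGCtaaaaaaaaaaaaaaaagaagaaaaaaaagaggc
E2F3: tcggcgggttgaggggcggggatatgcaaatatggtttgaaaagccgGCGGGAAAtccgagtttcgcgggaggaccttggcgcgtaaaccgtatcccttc
E2F1 held 2 matches, 33 to 26 and 20 to 13 bases before the start, E2F2 held 1 at 42 to 35 and E2F3 held 1 at 53 to 46. The match was thus present both where the transcript rose and in E2F3, whose main probe set did not pass. Of 9 windows of E2F1, E2F2, E2F3, E2F7, CCNE1 and CCND3, these 3 held a match (33.3%), beside 3.31% of all 35116 windows. The windows of CCNE1, E2F7 and CCND3 held none of these letters, nor did a second E2F3 window. With the first T of each motif left out, 4 of the 9 windows matched, E2F7 being added, beside 13.0% of all windows. The one RB1 window lay inside the gene rather than at its first base, held no match and was not counted. Windows of E2F3 and CCND3 downstream of another window of the same gene were counted, as were all such windows among the 35116. CCND1, CCNE2 and E2F8 were not analysed here.

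The repressor E2Fs rose at both times. E2F7 (228033_at) read 8.90, 8.94 and 8.93 in control and 9.68, 9.90 and 9.88 in Aa at 24 h, then 8.53, 8.22 and 8.29 in control and 9.52, 9.59 and 9.39 in Aa at 48 h. The rise was 1.86-fold (log2 0.90, SE 0.11, adjusted p 5.83e-05) and 2.23-fold (1.16, SE 0.11, adjusted p 4.87e-06). A second E2F7 probe set, with a mean of 4.46 close to the filter, was higher in Aa by 0.85 at 24 h (adjusted p 0.0220) and differed by 0.09 at 48 h (adjusted p 0.777). E2F8 (219990_at), for which the array has this 1 probe set, read 8.19, 8.26 and 8.39 in control and 9.04, 9.03 and 9.20 in Aa at 24 h. At 48 h it read 7.86, 7.73 and 7.82 in control and 9.15, 9.11 and 9.33 in Aa. Neither gene's groups overlapped, and E2F8 rose 1.75-fold (log2 0.81, SE 0.10, adjusted p 6.58e-05) and 2.62-fold (1.39, SE 0.10, adjusted p 7.67e-07).

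RB1, the pocket protein that restrains the activator E2Fs, moved the other way. RB1 (203132_at) read 10.79, 10.90 and 10.82 in control and 10.50, 10.86 and 9.89 in Aa at 24 h. Aa replicate 2 lay among the control arrays and replicate 3 about a whole log2 unit lower, so the groups overlapped and the log2 change of -0.42 (SE 0.22) did not pass (adjusted p 0.141). Without Aa replicate 3 it was -0.16 (adjusted p 0.512). Without Aa replicate 2 it was -0.64 and passed (adjusted p 0.0282), as it did with the mean of both probe sets (-0.61, adjusted p 0.0125) and with scaling to the hybridisation controls (-0.70, adjusted p 0.0172). These were the 3 of 24 alternatives under which it passed. At 48 h the control arrays read 10.90, 11.25 and 10.97 and the Aa arrays 10.12, 10.10 and 9.63, all below the controls, and RB1 was 2.13-fold lower (log2 -1.09, SE 0.22, adjusted p 0.00126). The second RB1 probe set was lower by more at both times, its log2 change being -0.81 at 24 h (adjusted p 0.00954) and -1.61 at 48 h (6.80e-05).

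**Figure D2:**
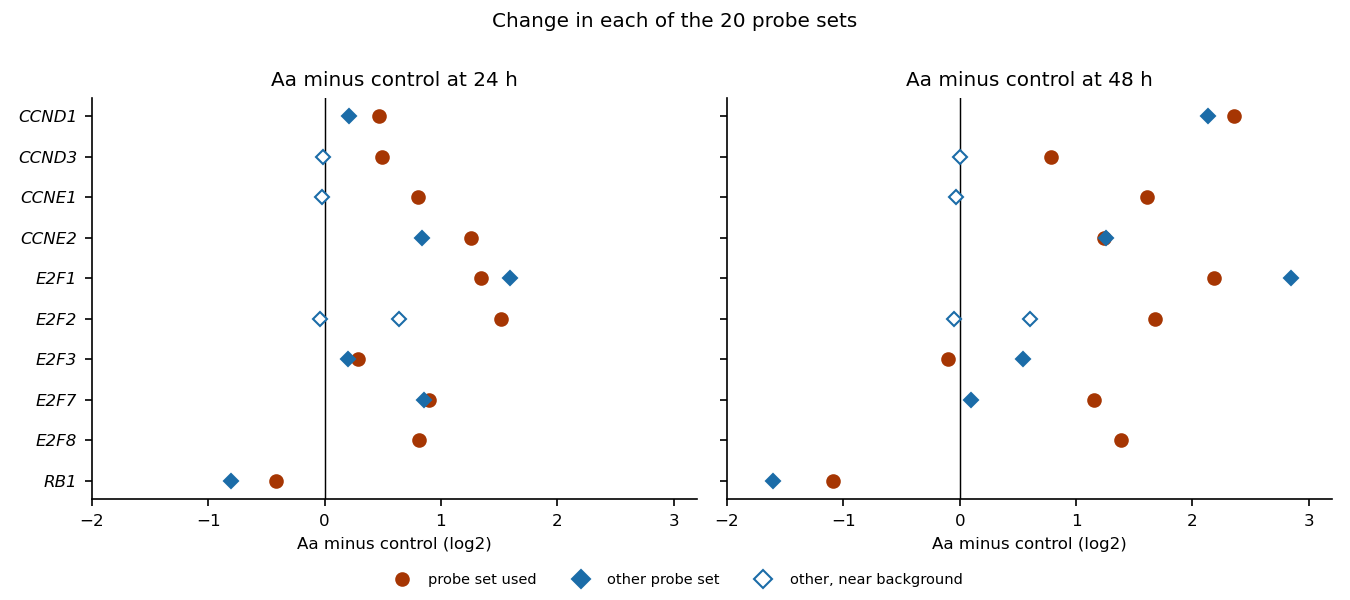
Log2 difference between Aa and control (x axis) in each of the 20 probe sets annotated to the 10 genes (rows), at 24 h on the left and 48 h on the right. Circles are the probe sets used, filled diamonds other probe sets over log2 4 on at least 3 arrays, and open diamonds those near background; the E2F3 pair differ at 48 h (-0.10 and 0.54), as do those of E2F7 (1.16 and 0.09), while both of RB1 lie below 0.

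Of the 20 probe sets, 10 were not the one used and 6 of these were over the filter. Their sign matched that of the one used for CCND1, CCNE2, E2F1, E2F7 and RB1 at both times, the E2F7 value at 48 h not past the test, and for E2F3 at 24 h only. The remaining 4, belonging to CCND3, CCNE1 and E2F2, were at or near background, so they are no check. No probe set of a member was annotated to another gene as well (0 found).

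The change with Aa was larger at 48 h than at 24 h for 3 genes. The difference of the changes was 1.89 for CCND1 (SE 0.41, adjusted p 0.0119), 0.80 for CCNE1 (SE 0.19, adjusted p 0.0162) and 0.58 for E2F8 (SE 0.14, adjusted p 0.0193). It passed as negative for 0 genes, also at an unadjusted p under 0.05 (limma). Of all genes tested, it passed as positive in 6.80% and as negative in 12.7%. The difference is signed, so a negative value can be a smaller rise or a larger fall at 48 h. CCND1 was higher in Aa at 48 h than at 24 h by 1.60 (adjusted p 0.00272), with a control difference of -0.29 (adjusted p 0.646). For CCNE1 and E2F8 the Aa levels differed between times by 0.13 and 0.11 (adjusted p 0.498 and 0.458), while the controls stood lower at 48 h by 0.67 and 0.47. Those control differences did not pass (adjusted p 0.0520 and 0.0589), although every 48 h control array lay below every 24 h control array.

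The E2F8 difference missed the threshold without control 24 h replicate 3 (0.52, adjusted p 0.0505). With scaling to the hybridisation controls, the values were 0.42 for E2F8 (adjusted p 0.180) and 0.64 for CCNE1 (adjusted p 0.0877), neither past the test. With the replicate number as a block, E2F1 (0.84, adjusted p 0.0134) and RB1 (-0.67, adjusted p 0.0481) passed as well, which makes 5 genes. Without the block these 2 did not pass (adjusted p 0.0986 and 0.152). Over all 11184 genes the block gave 4314 past the test in this contrast, against 2179 without it.

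Between the control times, E2F2 (log2 change -0.80, adjusted p 0.0381) and E2F7 (-0.58, adjusted p 0.0449) fell and 0 genes rose, also 0 at an unadjusted p under 0.05 (limma). Of all genes tested, 0.358% fell and 0.277% rose at adjusted p under 0.05. At the unadjusted threshold 6 of the 10 genes were lower at 48 h in control. The share of all genes at that threshold was not counted, and the adjusted shares above are no measure for it. The median control difference of the 10 genes was -0.31, beside -0.01 over all genes. The 2 calls turned on single arrays: leaving out single arrays left between 0 and 4 genes past the test, with 4 reached without control 48 h replicate 3. With the replicate block, CCNE1 (adjusted p 0.00678) and E2F8 (0.00672) passed too, which makes 4. Over all 11184 genes 1669 then passed, against 71 without the block. Between the Aa times, CCND1 rose as given above and E2F2 (-0.64, adjusted p 0.00563) and E2F7 (-0.32, adjusted p 0.0488) fell, beside 9.65% of all genes that rose and 19.5% that fell. The replicate block added E2F1 (0.51, adjusted p 0.0206) and RB1 (-0.47, adjusted p 0.0452), which makes 5. Of all 11184 genes 4987 passed with the block, against 3261 without it. The E2F7 call between the Aa times was lost in 10 of the 12 fits that left out 1 array. Of the control calls, E2F2 lost its call in 9 of those 12 fits and E2F7 in 11.

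**Figure D3:**
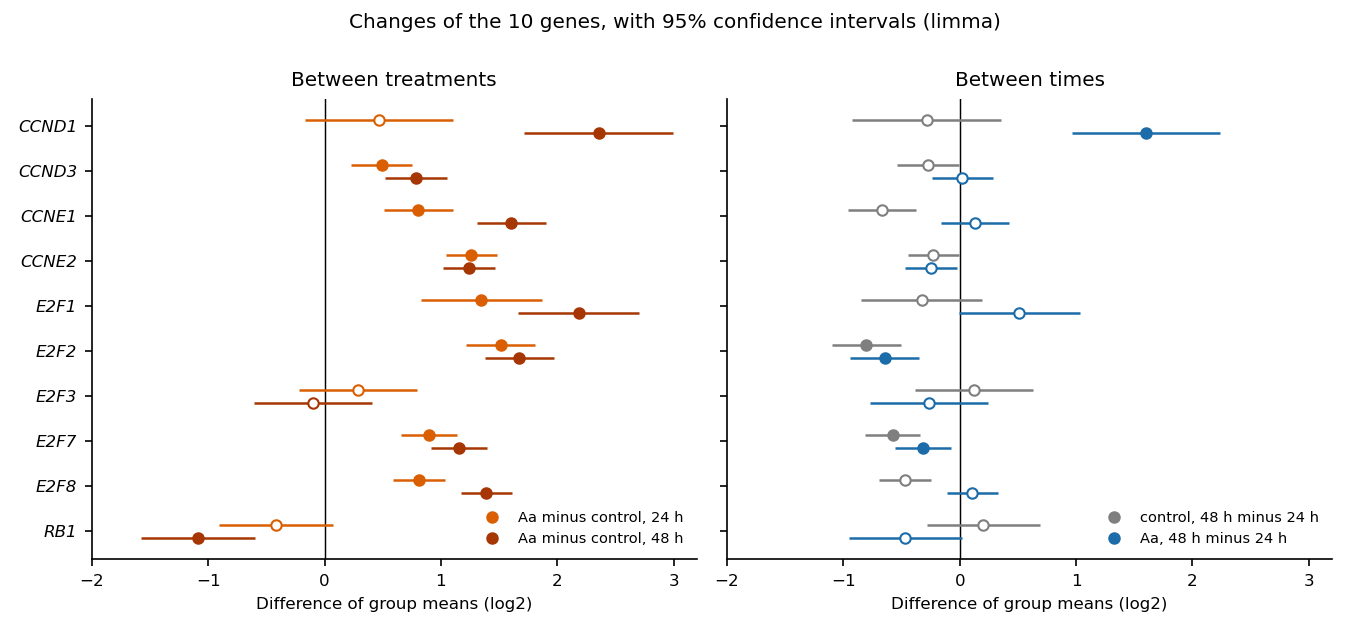
Differences of group means (log2, x axis) for the 10 genes (rows) with 95% confidence intervals from limma, between treatments on the left and between times on the right. Filled points passed at adjusted p under 0.05: CCND1 alone rose between the Aa times (1.60), while E2F2 and E2F7 fell between times in control and in Aa.

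The order of the 4 group means is given from the tests without the replicate block. For CCND3, CCNE1 and E2F8 every Aa array stood above every control array of either time, and neither the Aa groups nor the control groups differed past the test between times. CCNE2 and E2F1 had the same arrangement, with Aa lower at 48 h by 0.25 in CCNE2 (adjusted p 0.0903) and higher by 0.51 in E2F1 (adjusted p 0.130). E2F2 and E2F7 stood in the order Aa 24 h, Aa 48 h, control 24 h and control 48 h, where the middle pair was not tested. With the block, CCNE1 and E2F8 also differed between control times, and E2F1 and RB1 between Aa times, as given above. CCND1 stood highest in Aa at 48 h, with the other 3 groups not separated by the tests made, and RB1 stood lowest there, without passing against Aa at 24 h (adjusted p 0.141).

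A wider set of genes that act with these 10 was counted as well. A list of 40 G1 partner genes held cyclins, CDKs, their inhibitors, the other pocket proteins and the dimer partners of E2F, and 37 were tested: CDK3 and CDKN2C were not analysed here and LIN54 was under the filter. At 24 h 8 rose (21.6%), 9 fell (24.3%) and 20 did not pass, beside 26.3% of all genes that rose and 22.8% that fell. At 48 h 9 rose (24.3%), 15 fell (40.5%) and 13 did not pass, beside 30.6% and 33.9%. These shares lie near those of all genes. The median log2 change was -0.08 at 24 h and -0.17 at 48 h, beside 0.02 and -0.03 over all genes. With scaling to the hybridisation controls 5 rose (13.5%) and 13 fell (35.1%) at 24 h, beside 14.7% and 34.6% of all genes. At 48 h 7 rose (18.9%) and 22 fell (59.5%), beside 16.0% and 53.0% of all genes.

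The 3 largest rises were all in CDK inhibitors. Of the other CDK inhibitors tested, CDKN1B fell, as given below, and CDKN2A and CDKN1C did not pass at 24 h or 48 h. Their log2 changes were 0.06 and 0.23 for CDKN2A (adjusted p 0.805 and 0.285), and 0.66 and 0.15 for CDKN1C (adjusted p 0.0553 and 0.628). CDKN2B, the p15 inhibitor of CDK4 and CDK6, was under log2 4 on all 3 control arrays at 48 h and at 9.62 ± 0.30 in Aa (SD, n = 3), at least 49.2-fold higher with low arrays set to log2 4 (adjusted p 2.20e-08). At 24 h it was at least 12.1-fold higher, with 1 control array under log2 4. CDKN2D, the p19 inhibitor of the same kinases, went from 6.01 ± 0.25 in control to 8.14 ± 0.51 in Aa at 48 h, 4.37-fold (SD, n = 3, adjusted p 3.50e-05). CDKN1A, the p21 inhibitor of CDK2, went from 9.43 ± 0.52 to 11.39 ± 0.12 at 48 h, 3.90-fold (SD, n = 3, adjusted p 1.54e-05), and was 3.08-fold higher at 24 h. The 3 largest falls, all at 48 h, were in TFDP2, a DNA-binding partner of the E2Fs (log2 -2.27, adjusted p 2.18e-06), MNAT1, a subunit of the kinase that activates CDKs (-1.90, adjusted p 2.63e-05), and CDKN1B, the p27 inhibitor of CDK2 (-1.89, adjusted p 3.02e-05).

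The nearest partners of the 10 genes are added here by their role, and were chosen after their values were seen. CDK6, a kinase bound by D-type cyclins, fell by 0.86 at 24 h and by 0.88 at 48 h (log2, adjusted p 0.000253 and 0.000122). CDK4, the other such kinase, differed by -0.28 at both times and passed at 48 h only (adjusted p 0.0534 and 0.0467). CDK2, bound by E-type cyclins, differed by -0.09 and 0.36, neither past the test (adjusted p 0.742 and 0.152). The third D-type cyclin, CCND2, moved against CCND1 and CCND3, with log2 changes of -1.49 at 24 h and -1.25 at 48 h (adjusted p 0.00372 and 0.00717). The pocket proteins RBL1 and RBL2 fell at 48 h, as RB1 did, by 0.54 and 0.70 (adjusted p 0.00808 and 0.00528). At 24 h they differed by 0.25 and -0.24, neither past the test (adjusted p 0.185 and 0.293). Of the remaining E2Fs, E2F5 fell by 1.33 and 1.59 (adjusted p 1.69e-05 and 2.44e-06), and E2F4 was near the filter, at 4.22 to 4.29 in the group means. E2F6 rose by 0.46 at 24 h (adjusted p 0.0409) and differed by 0.16 at 48 h, not past the test (adjusted p 0.437). TFDP1, the other dimer partner, differed by -0.08 and -0.03 (adjusted p 0.681 and 0.860).

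Genes known to be switched on by E2F were counted from a list of which 45 were tested. At 24 h 22 rose (48.9%), 6 fell (13.3%) and 17 did not pass, beside 26.3% of all genes that rose and 22.8% that fell. At 48 h 23 rose (51.1%), 11 fell (24.4%) and 11 did not pass, beside 30.6% and 33.9%. The median log2 change was 0.30 at 24 h and 0.29 at 48 h, beside 0.02 and -0.03 over all genes. Between the Aa times 0 targets rose and 17 fell (37.8%), beside 9.65% of all genes that rose and 19.5% that fell. Between the control times 0 targets rose and 2 fell (4.44%), beside 0.277% and 0.358%. The median target stood lower at 48 h by 0.25 in Aa and by 0.31 in control, beside 0.07 and 0.01 over all genes. With scaling to the hybridisation controls, which lowers the changes of all genes alike, 9 rose and 8 fell at 24 h, and 10 rose and 16 fell at 48 h. These are 20% and 17.8% of the targets beside 14.7% and 34.6% of all genes at 24 h, and 22.2% and 35.6% beside 16.0% and 53.0% at 48 h. The list and the G1 partner list share 4 genes. Of 42 target genes with a RefSeq promoter window, 27 held one of the 4 motifs given above (64.3%), beside 3.99% of all genes with a window. The list was made of textbook genes that E2F factors bind, so this share describes the list and is no result of these arrays.

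The 3 largest rises were in MCM10, which helps load the replication machinery, EXO1, a DNA exonuclease of repair, and CDC6, which licenses replication origins. At 48 h MCM10 went from 7.49 ± 0.46 in control to 9.74 ± 0.14 in Aa (SD, n = 3), EXO1 from 8.01 ± 0.30 to 10.14 ± 0.18 and CDC6 from 8.68 ± 0.50 to 10.54 ± 0.15. Their folds were 4.77, 4.39 and 3.65 (adjusted p 5.42e-06, 2.44e-06 and 2.49e-05). As in CCNE1 and E2F8, the Aa means of these 3 genes lay close together at both times, with 9.91 for MCM10, 10.24 for EXO1 and 10.57 for CDC6 at 24 h, while the control means were higher at 24 h, at 8.66, 8.91 and 9.67. The 3 largest falls were in POLA2 at 24 h (log2 -1.41, adjusted p 0.000138) and PRIM1 at 48 h (-1.04, adjusted p 1.37e-05), subunits of the polymerase alpha and primase complex, and in the S and G2 phase cyclin CCNA2 at 24 h (-0.70, adjusted p 0.00271). MKI67, a marker of dividing cells, differed by -0.17 at 24 h (adjusted p 0.331) and was 2.23-fold higher at 48 h (log2 1.16, adjusted p 2.71e-05). MDM2, the p53 regulator, differed by 0.22 at 24 h (adjusted p 0.226) and fell by 0.54 at 48 h (adjusted p 0.00550).

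**Figure D4:**
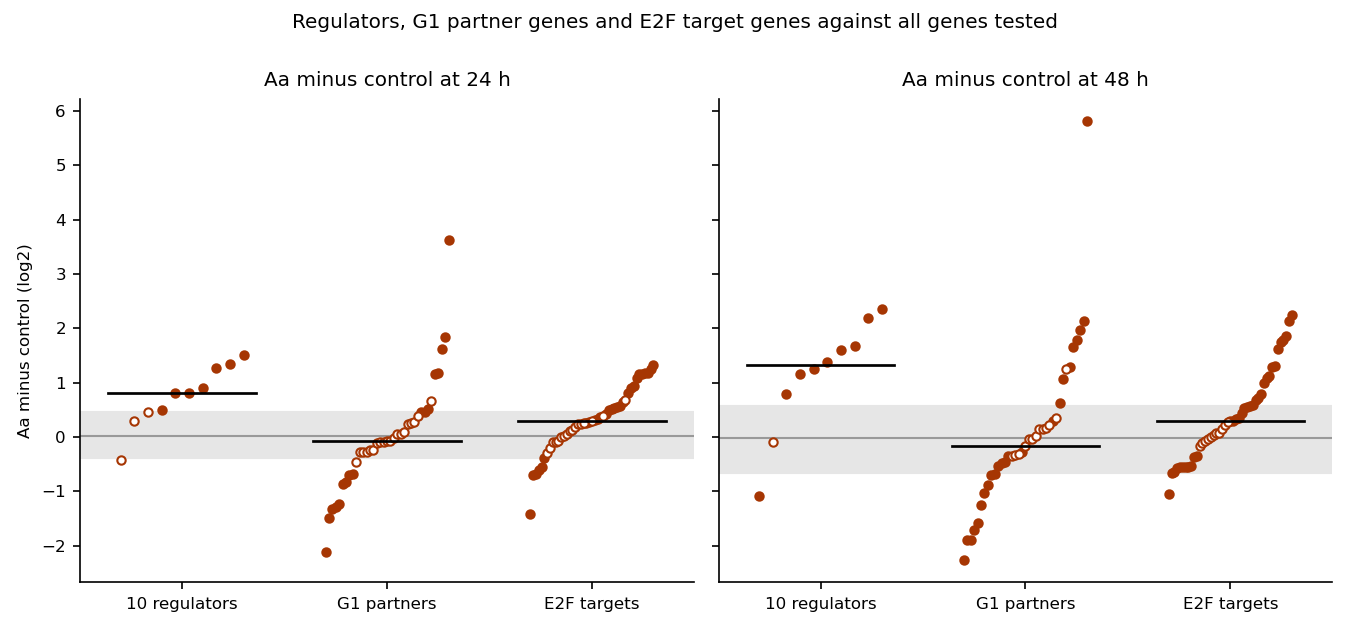
Log2 difference between Aa and control (y axis) for each tested gene of the 10 regulators, the 37 G1 partner genes and the 45 E2F target genes, sorted within each list, at 24 h and 48 h; filled points passed at adjusted p under 0.05, and short black lines mark list medians. The grey line and band are the median and the quartiles of all genes tested; list medians at 48 h were 1.32, -0.17 and 0.29, and the highest partner gene is CDKN2B.

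Genes most like each member across the 12 arrays were named as a description; the arrays share their groups, so any pair of genes that differ between the groups alike will correlate. CCNE1 was most like CDCA5, a regulator of sister chromatid cohesion (Pearson r 0.985), and E2F7 was most like E2F2, another member (0.976). The closest genes to the others were SNRNP27 for CCND1 (0.975), DGKQ for CCND3 (0.983), PCGF6 for CCNE2 (0.989), ZSWIM8 for E2F1 (0.992), STARD7 for E2F2 (0.982), ALG2 for E2F8 (0.993) and NAV1 for RB1 (0.970). E2F3 had the lowest such value, 0.888 with C21orf91. Among the members themselves RB1 correlated lowest with E2F1 (-0.878) and highest with E2F3 (0.380).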

How the data were processed

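The authors deposited log2 values of 54675 probe sets, for which the submitters' processing notes name GCRMA. That method corrects background by probe sequence, normalises between arrays and summarises probes, which would hide any change common to most transcripts. The sources used here give no version of it, and log2 was inferred from the range of the values. Probe sets naming 1 gene (41091) were kept, and each gene was read from the one with the highest mean. Genes over log2 4 on at least 3 of 12 arrays entered a limma 3.58.1 model (R 4.3.3) of 4 group means with 8 residual degrees of freedom. The median SE of a log2 change was 0.161, and the number of arrays limits precision. The model was tested on simulated data. The 10 members, both lists and the tests were chosen with earlier results of these data known. From each list the 3 largest rises and falls that passed with no overlap of groups were named, and for each member the gene with the highest Pearson correlation. Same-numbered samples of different groups deviated together in all 18 pairs (r 0.279 to 0.577), so the numbers pair the samples. The sources used here do not say what they share. In every group the log2 excess of 3′ over 5′ control probe sets was highest in replicate 2 (0.355 to 0.680) and lowest in replicate 3 (0.235 to 0.431). The part of RNA quality in the pairing was not tested. Alternatives covered scaling, filters, probe set choice, the replicate block, variance settings and leaving out each array.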

Additional observations from a re-analysis of the deposited data

Results flagged for a closer look

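The change with Aa differed between 24 h and 48 h, by an interaction term in limma, for CCND1 (1.89 on the log2 scale), CCNE1 (0.80) and E2F8 (0.58). These are the 3 genes whose difference of changes is described above with its standard error, its adjusted p and the settings under which it missed the threshold.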

How the results depend on the processing

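Of 1190 values of single genes under 24 alternatives, 1096 kept their direction and their side of the threshold, 31 newly passed, 43 no longer passed and 20 changed sign. The changes between Aa and control at 48 h passed under all 24 alternatives for CCND1, CCND3, CCNE1, CCNE2, E2F1, E2F2, E2F7, E2F8 and RB1, and those at 24 h for CCNE1, CCNE2, E2F1, E2F2, E2F7 and E2F8. Scaling to the hybridisation controls moved the count of the 10 genes from 3 to 1 for the difference of changes. It gave 6 of the 10 between control times and 8 between Aa times. The E2F target count at 24 h moved from 28 to 17. Of all 11294 genes tested with this scaling, 1884 passed for the difference of changes, 1953 between control times and 6852 between Aa times. The main fit gave 2179, 71 and 3261 of 11184 genes. The replicate block gave 5, 4 and 5 of the 10 genes in these contrasts, and 4314, 1669 and 4987 of all 11184 genes. It changed no call of the 10 genes between Aa and control. Between control times, 1 of the 10 genes passed with equal array medians, with the mean of probe sets and with every probe set tested, 4 with a floor at log2 4, and 0 with only the arrays compared. Over all genes that contrast gave 30 with every probe set tested, 141 with the floor, 146 with a trended robust variance and 0 with only the arrays compared. Leaving out 1 array gave 0 to 4 of the 10 genes and 9 to 545 of all genes between control times, and 1241 to 2597 genes for the difference of changes. Values that changed sign were all of differences that had not passed. CCND3 between Aa times was -0.024 with equal array medians and -0.45 with hybridisation controls, which passed. With hybridisation controls, CCNE1 and E2F8 between Aa times were -0.34 and -0.37 (the latter passed), and E2F3 and RB1 between control times -0.19 and -0.11. With the mean of probe sets, the difference of changes was 0.20 for CCNE2 and -0.25 for E2F7, and E2F3 was 0.22 at 48 h and -0.081 between control times. Leaving out 1 array gave -0.56 to 0.10 for CCND1 between control times (positive without control 24 h replicate 3), -0.068 to 0.12 for CCND3 between Aa times, -0.083 to 0.059 for the CCNE2 difference of changes, and -0.24 to 0.16 at 48 h and -0.016 to 0.23 between control times for E2F3. The cause of these shifts was not tested. Signal near background limits the second probe set of E2F7 as a check.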
